A study of Mus musculus with 6 samples.

Results

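Lymphoid priming is the low-level transcription of lymphocyte genes in progenitors that have not yet chosen a lineage. The genes described here are 10 such effectors: Dntt, Rag1, Rag2, Il12a, Ighm, Lsp1, Cd52, Blnk, Gpr171 and Vpreb1. They were chosen by name and not by a rule on measured values, but with earlier results of these data known. Each is represented by the array feature that carries its symbol, or by the feature with the highest mean where there are several. All 10 were found, on 12 of the 23410 tested features. The samples were 6 whole-transcript mouse arrays of bone marrow multipotent progenitors, 3 labelled wild type (WT) and 3 labelled Lxn-/-, in which exons 2 to 4 of latexin are deleted and the protein is absent. Latexin is an inhibitor of carboxypeptidases. All donors were C57BL/6 mice of 8 to 12 weeks, labelled female, and each array held RNA of about 100000 cells pooled from 10 to 20 mice. The gate took lineage-negative cells positive for Sca-1, c-Kit, CD34 and a receptor that the series text spells Flt2. That text also calls the cells long-term stem cells in places. The comparison asks how these genes differ when latexin is absent.

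Lymphoid competence first appears in multipotent progenitors with high levels of the receptor Flt3. There, the genes for building antigen receptors begin to be transcribed before any receptor is made. RAG1 and RAG2 form the recombinase that cuts the receptor gene segments, and the polymerase encoded by Dntt adds nucleotides to the cut ends. A rearranged heavy chain of the class encoded by Ighm pairs with a surrogate light chain that contains VpreB1, and BLNK carries the signal of that receptor onward.

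Several facts of the arrays touch every value below. Values are log2 expression after RMA, and changes are Lxn-/- minus WT with the standard error (SE) from limma. The p-values set the difference between groups against the spread between pools within them, which limma moderates over all tested features. Lxn read 8.56 to 8.70 in WT and 8.03 to 8.61 in the arrays labelled Lxn-/-, so it does not check the genotype. The exons that its probes cover were not known here. Labelled Lxn-/- arrays 1 and 3 carried Y-linked signal against their label, with Eif2s3y at 8.57 and 9.36 and at most 3.97 in the other 4 arrays. Xist was 6.86 and 5.85 in those arrays and at least 13.13 in the others. Labelled Lxn-/- array 2 is therefore also compared alone with WT, on the assumption that it varies like the WT arrays. Where array 2 is left out instead, the labelled Lxn-/- arrays that remain all carry Y-linked signal. Label and that signal cannot be told apart in such a fit. The gate genes Cd34 and Flt3 read 13.33 to 13.48 and 12.45 to 12.83, and Kit read 11.48 in labelled Lxn-/- array 1 and 12.05 to 12.19 in the other 5. Dim features as a class were lower in the labelled Lxn-/- arrays. Of 1027 olfactory receptor genes, a family not expected in blood cells, 952 had a lower mean, with a median change of -0.18, against -0.04 over all tested features. For this reason the median change of features at the same level, from 10 equal groups (deciles) by mean level, is given beside the changes of dim genes and plotted for all 10 members.

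None of the 10 genes passed an adjusted p of 0.05 (Benjamini-Hochberg over all tested features in limma, 0% of which passed). Without labelled Lxn-/- array 2, 145 features did, none of them a member, in a fit where label and Y-linked signal cannot be told apart. In the fit of all 6 arrays, 2 genes had an unadjusted p under 0.05, Blnk and Cd52, both with a higher mean in the labelled Lxn-/- arrays. That is 2 of 10, where 14.3% of all tested features met this limit with 5.06% higher and 9.23% lower in the labelled Lxn-/- arrays. Of the 10 genes, 8 had a higher mean and 2, Ighm and Lsp1, a lower one, with a median change of 0.14. Over all tested features 42.2% had a higher mean, a share that went with level: it was 12.0% to 48.0% in the deciles that hold Vpreb1, Rag1, Rag2 and Ighm, and 68.0% to 79.1% in deciles 7 to 10. Deciles 7, 9 and 10 hold the other 6 genes, and 5 of those 6 had a higher mean. The groups did not overlap for 1 gene, Rag1, where 21.6% of all features did not overlap and 8.54% did so with the labelled Lxn-/- arrays higher.

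**Figure D1:**
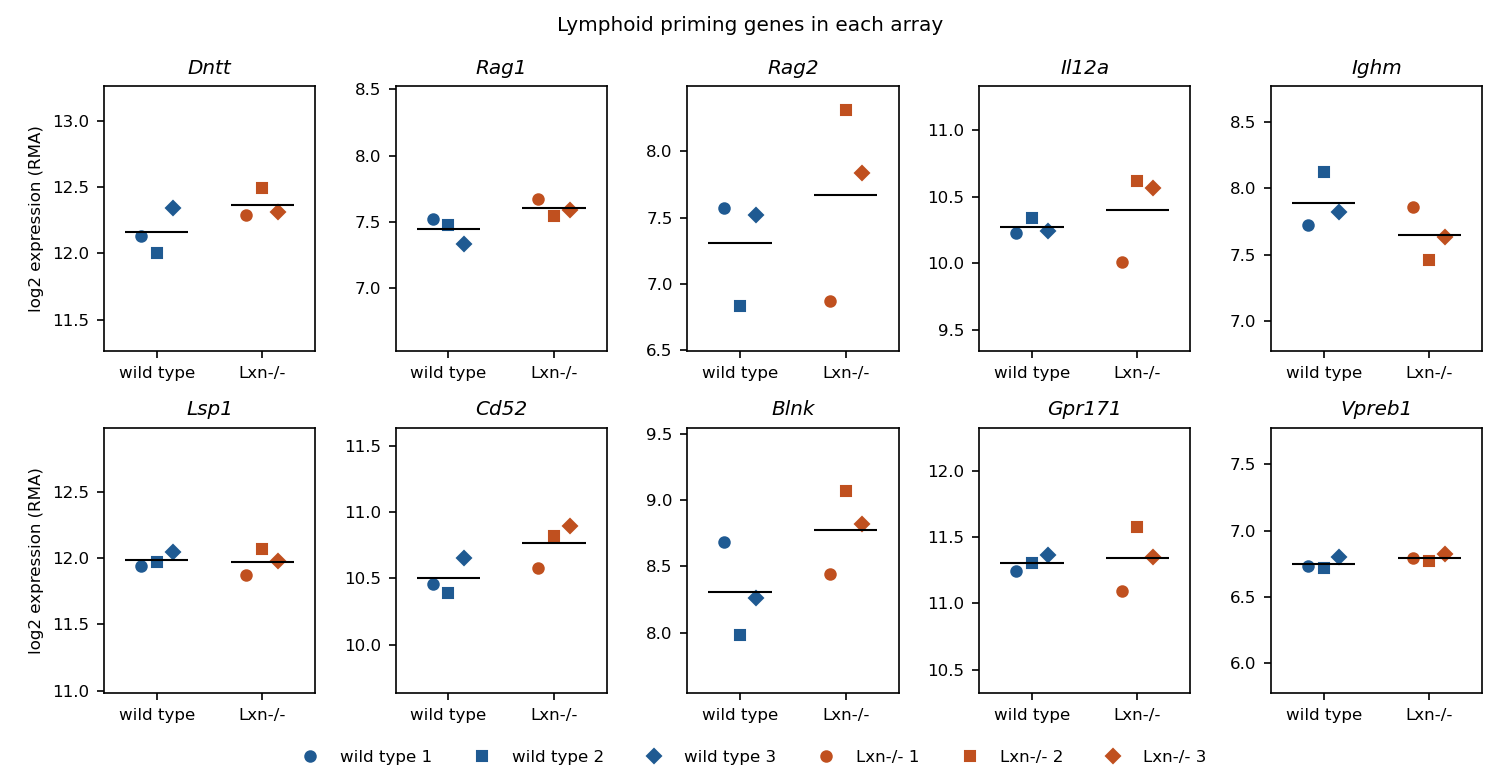
Log2 expression (y axis, a window of 2 log2 units in every panel) of the 10 genes in each array, by labelled group. Points are arrays, with the symbol giving the replicate number, and lines are group means of 3. Blnk and Rag2 spread most within groups, and the Rag1 groups do not overlap.

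Rag1 encodes the recombinase subunit with the catalytic site. It read 7.52, 7.48 and 7.34 in WT arrays 1, 2 and 3 and 7.68, 7.55 and 7.59 in labelled Lxn-/- arrays 1, 2 and 3. All 3 labelled Lxn-/- values lay above all 3 WT values, the closest 0.02 apart. The change was 0.16 (SE 0.09, 95% interval -0.05 to 0.36), with an unadjusted p of 0.119 and an adjusted p of 0.411. Features in its level decile had a median change of -0.12. The change was 0.10 (SE 0.10) without WT array 3, 0.25 (unadjusted p 0.0182, adjusted p 0.626) after the tested features were quantile-normalized again, and 0.10 for labelled Lxn-/- array 2 alone. The level itself was low, since 2.14% of the olfactory receptor genes had a mean at least as high.

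Rag2 encodes the partner subunit, which binds modified histone tails. It read 7.57, 6.84 and 7.52 in WT and 6.87, 8.31 and 7.83 in labelled Lxn-/- arrays 1, 2 and 3. WT array 2 and labelled Lxn-/- array 1 were low and labelled Lxn-/- array 2 was high, so the groups overlapped. Its range of 1.47 over the 6 arrays was the widest of the 10 genes, and the change of 0.36 (SE 0.33, 95% interval -0.39 to 1.12) had an adjusted p of 0.573, beside a median of -0.12 in its level decile. Without labelled Lxn-/- array 2 the change was 0.04, and without array 1 it was 0.76 (SE 0.24, adjusted p 0.140). Labelled Lxn-/- array 2 alone differed from WT by 0.999 (SE 0.26, unadjusted p 0.00444, adjusted p 0.324).

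Dntt encodes terminal deoxynucleotidyl transferase. It read 12.13, 12.00 and 12.34 in WT and 12.29, 12.49 and 12.31 in the labelled Lxn-/- arrays. Only WT array 3 lay among the labelled Lxn-/- values. The change was 0.20 (SE 0.11, 95% interval -0.05 to 0.46, adjusted p 0.396), which bounds the ratio of the means between 0.97 and 1.37. Without WT array 2, the lowest, the change was 0.13 (SE 0.12).

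Rag1 and Rag2 are neighbours on chromosome 2, and Blnk and Dntt are neighbours on chromosome 19, with 0 protein-coding genes starting between them in either pair in the GRCm38.p6 gene table. The order of the arrays differed within the Rag pair. For Rag1, whose 6 values spanned 0.34, labelled Lxn-/- array 1 was the highest of 6, and for Rag2 it was the second lowest. Dntt and Blnk shared their highest array, labelled Lxn-/- array 2, and their lowest, WT array 2, and differed in the order between. The 250 bases before the start site of these 4 genes (RefSeq, GRCm38.p6) are shown because each pair shares a locus. Capitals mark the E-box CANNTG, the letters bound by E2A proteins, and the cores TGGGAA of Ikaros and GAGGAA of PU.1, searched on both strands.
Rag1 (chr2:101649533-101649782, minus strand): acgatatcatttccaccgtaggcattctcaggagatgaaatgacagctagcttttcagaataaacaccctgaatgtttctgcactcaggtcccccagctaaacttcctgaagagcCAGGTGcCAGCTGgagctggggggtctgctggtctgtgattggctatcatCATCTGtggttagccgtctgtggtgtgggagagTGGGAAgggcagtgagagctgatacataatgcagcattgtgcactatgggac
Rag2 (chr2:101624462-101624711, plus strand): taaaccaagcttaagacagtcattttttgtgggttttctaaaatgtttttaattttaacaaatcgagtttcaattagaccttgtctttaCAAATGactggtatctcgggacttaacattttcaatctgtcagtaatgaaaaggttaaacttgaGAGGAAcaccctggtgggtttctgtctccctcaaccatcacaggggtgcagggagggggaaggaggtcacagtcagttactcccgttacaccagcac
Dntt (chr19:41029025-41029274, plus strand): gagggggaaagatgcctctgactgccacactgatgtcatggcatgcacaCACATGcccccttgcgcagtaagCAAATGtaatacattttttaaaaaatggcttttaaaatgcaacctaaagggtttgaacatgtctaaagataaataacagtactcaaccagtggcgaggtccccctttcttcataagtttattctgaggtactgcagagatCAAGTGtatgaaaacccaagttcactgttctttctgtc
Blnk (chr19:40994222-40994471, minus strand): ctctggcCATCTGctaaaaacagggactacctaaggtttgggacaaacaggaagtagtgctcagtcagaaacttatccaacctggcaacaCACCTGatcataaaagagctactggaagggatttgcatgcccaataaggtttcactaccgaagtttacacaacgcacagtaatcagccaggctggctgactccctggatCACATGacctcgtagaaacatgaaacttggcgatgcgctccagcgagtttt
The Rag1 window held 3 E-boxes and 1 Ikaros core, the Rag2 window 1 E-box and 1 PU.1 core on its own strand, and the Dntt and Blnk windows 3 E-boxes each. Of the 32851 windows of this length in the promoter table, 66.2% held an E-box, 21.6% the Ikaros core and 23.3% the PU.1 core. The EBF1 core was searched too, and was in 0.779% of all windows and in none of these 4. A match describes these letters and not a bound site. Of the other members, Il12a and Vpreb1 were matched in the promoter table, and Ighm, Lsp1, Cd52 and Gpr171 were not used here for sequence.

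Partners of the recombinase were given by a list of 14 end joining and cofactor genes, of which 13 were measured. None passed (smallest adjusted p 0.340), 9 had a higher mean and 4 a lower one, with a median change of 0.16. The 3 with the smallest p did not overlap between groups, all with the labelled Lxn-/- arrays higher, where 8.54% of all features did so. Prkdc, the DNA-dependent protein kinase, read 9.11, 8.91 and 9.04 in WT and 9.29, 9.24 and 9.34 in the labelled Lxn-/- arrays, a change of 0.27 (SE 0.09). Xrcc6, a Ku subunit that holds DNA ends, changed by 0.22 (SE 0.09), and the damage kinase gene Atm by 0.17 (SE 0.09). The level deciles of these genes had medians of 0.07 to 0.09.

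Blnk encodes the adaptor that links the kinase SYK to BTK and phospholipase C. It read 8.69, 7.98 and 8.26 in WT and 8.44, 9.06 and 8.82 in labelled Lxn-/- arrays 1, 2 and 3. WT array 1 lay above labelled Lxn-/- array 1, so the groups overlapped, and labelled Lxn-/- arrays 2 and 3 were the 2 highest. The change of 0.46 (SE 0.20, 95% interval 0.01 to 0.91) was the largest of the 10 genes, a ratio of 1.38, with an unadjusted p of 0.0444 and an adjusted p of 0.344. It was 0.30 without WT array 2 and 0.32 without labelled Lxn-/- array 2. Without labelled Lxn-/- array 1 it was 0.63 (SE 0.19, adjusted p 0.139), and array 2 alone differed from WT by 0.75 (SE 0.23, adjusted p 0.327).

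**Figure D2:**
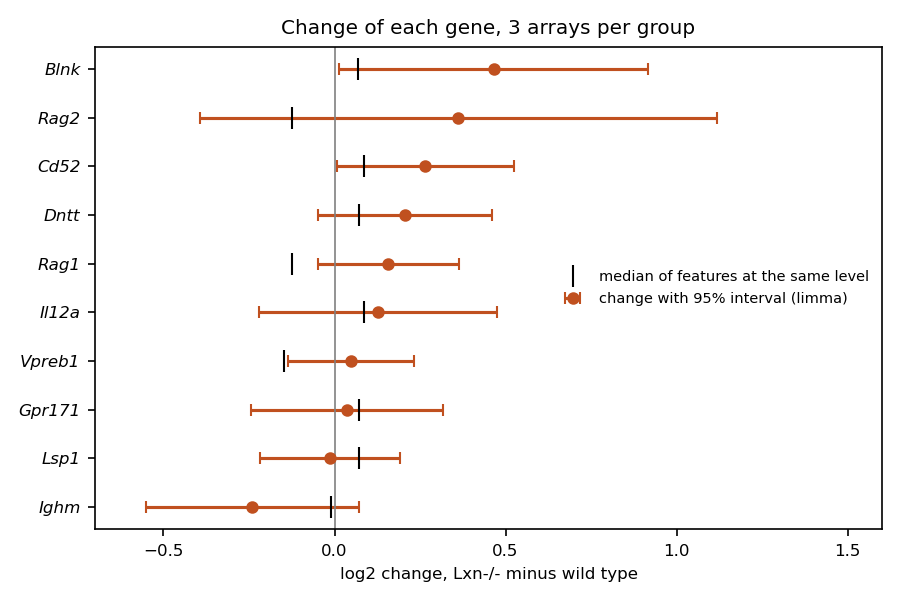
Change of each gene in log2 units (x axis, Lxn-/- minus wild type by label, 3 arrays each) with its 95% interval from limma. Vertical ticks are the median change of all features in the same level decile. The intervals of Blnk and Cd52 begin just above 0, and those of the other 8 genes span it.

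Vpreb1 encodes the variable-like part of the surrogate light chain. It read 6.73, 6.72 and 6.80 in WT and 6.80, 6.78 and 6.82 in the labelled Lxn-/- arrays. The 6 values lay within 0.10 of each other, and the groups overlapped. Every one lay below 7.21, the 95th percentile of the olfactory receptor genes, and 14.8% of those genes had a mean at least as high. Vpreb1 thus lay inside the range of genes not expected in these cells, and expression above that floor was not detectable here. The change was 0.05 (SE 0.08, 95% interval -0.14 to 0.23, adjusted p 0.767), or 0.18 after quantile normalization, and its level decile had a median of -0.15.

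**Figure D3:**
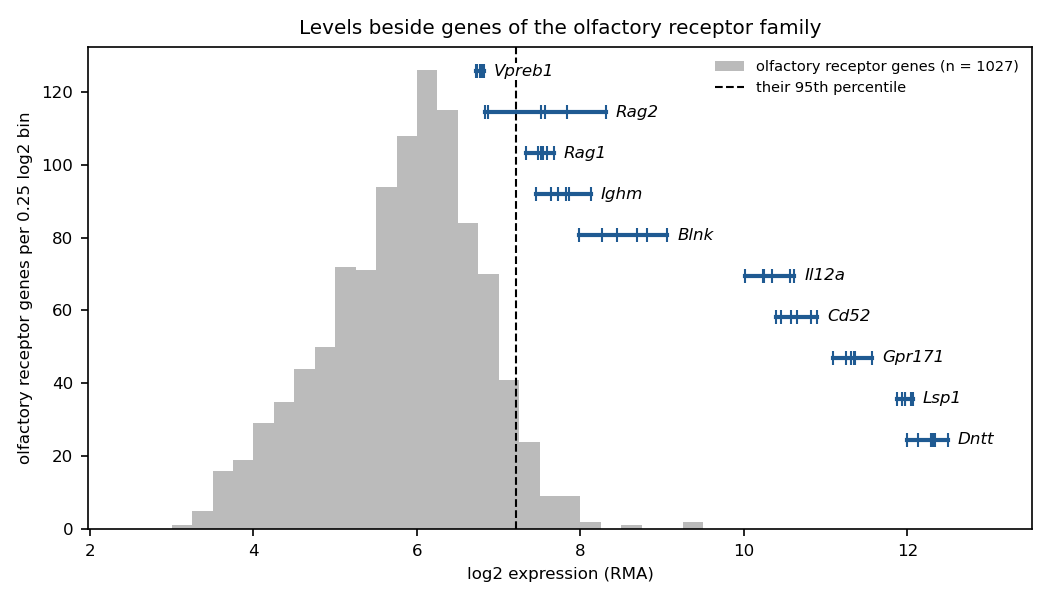
Log2 expression (x axis) of the 10 genes, with a tick per array and a bar from the lowest to the highest of 6, over a histogram of the mean level of 1027 olfactory receptor genes (y axis, genes per bin). Vpreb1 lies wholly below their 95th percentile of 7.21 and Rag2 does so in 2 arrays. Probes differ in affinity, so the plot shows distance from a floor and not an order of RNA amounts between genes.

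Ighm encodes the constant region of the mu heavy chain and is also transcribed before rearrangement. The representing feature, 10402991, read 7.72, 8.13 and 7.82 in WT and 7.86, 7.46 and 7.64 in labelled Lxn-/- arrays 1, 2 and 3. WT array 2 was the highest, labelled Lxn-/- arrays 2 and 3 were the lowest, and the groups overlapped. The change was -0.24 (SE 0.14, 95% interval -0.55 to 0.07, adjusted p 0.406), and it was -0.12 without WT array 2 and -0.14 without labelled Lxn-/- array 2. Its level decile had a median of -0.01. The other 2 Ighm features disagreed in spread. Feature 10402864 stayed between 7.17 and 7.53 in all 6 arrays. Feature 10403069 read 9.42 in WT array 2 and 8.08 in labelled Lxn-/- array 3, against 7.05 to 7.20 in the other 4.

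WT array 2 also stood apart in other immunoglobulin features, a set looked at after the Ighm values were seen. Of 15 features named for immunoglobulin heavy or light chain genes, Ighm among them, 12 were highest in WT array 2. Of these, 6 lay above every other array by over 0.5, and the others led by less, down to 0.007. Over all tested features, 58.5% lay above the WT mean in WT array 2, which is another measure than being the highest of 6. The share of all tested features highest in WT array 2 was not computed. The largest gap was in a kappa light chain variable gene that read 10.26 there and at most 5.15 elsewhere, and another read 11.43 there and at most 6.95 elsewhere. An Igha feature, of the immunoglobulin A heavy chain, read 10.17 there and at most 7.99 elsewhere. Jchain, which joins secreted immunoglobulin units in plasma cells, read 8.88 in WT array 2 and 6.29 to 7.25 in the other arrays. The part of such RNA in the Ighm change was not tested beyond the value without WT array 2. In bulk samples, fewer cells of a type and less RNA per cell cannot be told apart.

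**Figure D4:**
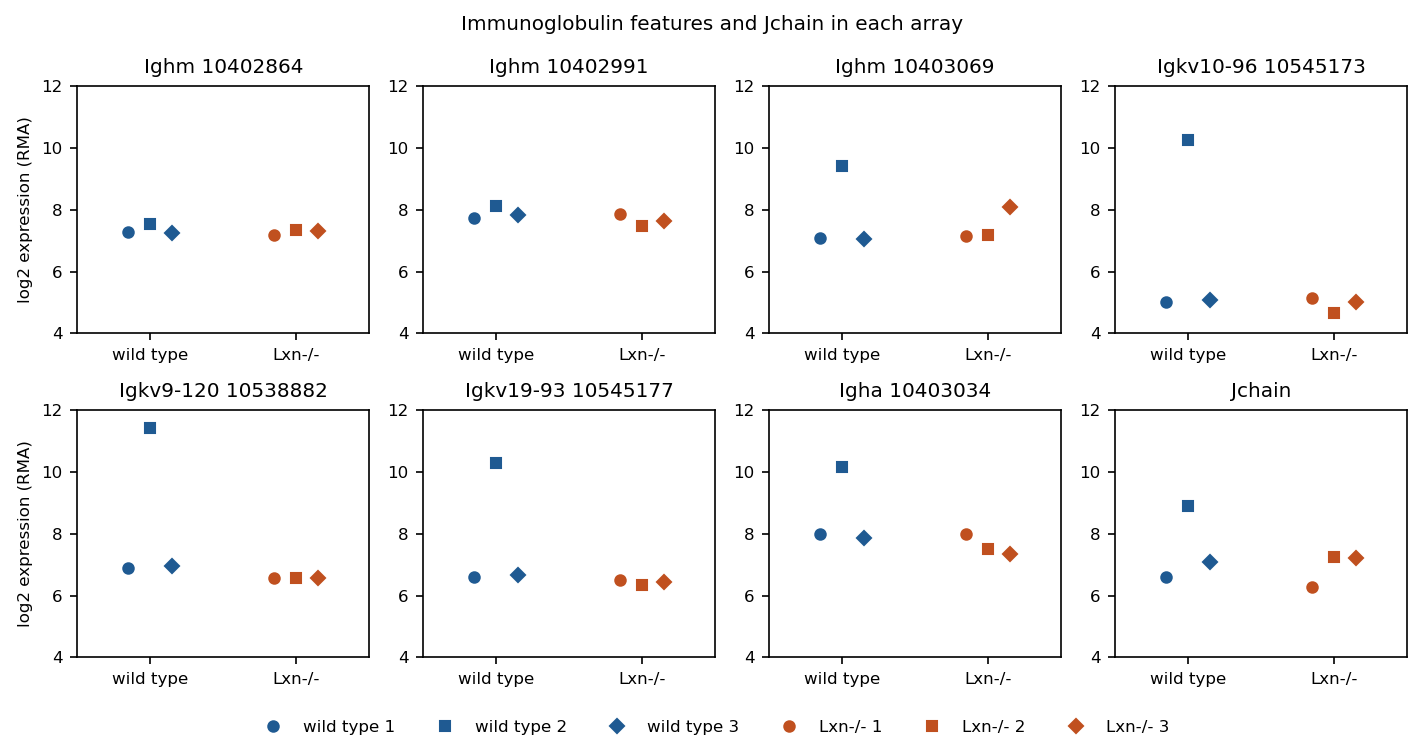
Log2 expression (y axis) in each array of the 3 Ighm features, 3 light chain variable genes, 1 Igha feature and Jchain, by labelled group, with the symbol giving the replicate number. WT array 2 (blue square) is far above the other arrays in all but the first 2 panels.

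The other genes of the surrogate light chain receptor and its signalling were given by a list of 22, of which 19 were measured. None passed (smallest adjusted p 0.340), 9 had a higher and 10 a lower mean, and the median change was -0.004. Igll1, the constant-like partner of VpreB1, read 7.67, 8.02 and 7.82 in WT and 7.52, 7.52 and 7.63 in the labelled Lxn-/- arrays. Its groups did not overlap, where 13% of all features did so with the labelled Lxn-/- arrays lower. The change was -0.28 (SE 0.11, adjusted p 0.340). Vpreb3 changed by -0.26 (SE 0.12) and Malt1, a protease of antigen receptor signalling, by 0.21 (SE 0.10), neither passing. The level decile of Igll1 and Vpreb3 had a median of -0.12, and that of Malt1 0.09. Among the partners of BLNK, Syk changed by 0.002 (SE 0.10) and Btk by 0.07 (SE 0.10). Plcg2, a phospholipase C, read 11.48, 11.44 and 11.49 in WT and 11.59, 11.60 and 11.53 in the labelled Lxn-/- arrays. The groups did not overlap, where 8.54% of all features did so with the labelled Lxn-/- arrays higher. Plcg2 changed by 0.10 (SE 0.08, adjusted p 0.511), beside a median of 0.07 in its level decile.

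Cd52 encodes a short glycoprotein anchored on lymphocytes and other leukocytes. It read 10.46, 10.39 and 10.65 in WT and 10.58, 10.82 and 10.90 in labelled Lxn-/- arrays 1, 2 and 3. Labelled Lxn-/- array 1 lay below WT array 3, so the groups overlapped, and labelled Lxn-/- arrays 2 and 3 were the 2 highest. The change of 0.27 (SE 0.11, 95% interval 0.01 to 0.52) had an unadjusted p of 0.0450 and an adjusted p of 0.344. Features at its level had a median change of 0.09. It was 0.21 without WT array 2, and labelled Lxn-/- array 2 alone differed from WT by 0.32 (SE 0.14).

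Lsp1 encodes an actin-binding protein of leukocytes. It read 11.94, 11.97 and 12.05 in WT and 11.87, 12.07 and 11.98 in the labelled Lxn-/- arrays. The 6 values spanned 0.20, and the labelled Lxn-/- values lay on both sides of WT. The change was -0.01 (SE 0.09), and its 95% interval of -0.22 to 0.19 bounds the ratio of the means between 0.86 and 1.14. The sign turned in 5 of 14 alternative fits, among them the centring of each array on its median (0.04).

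Il12a encodes the smaller subunit of interleukin 12, a cytokine that activates lymphocytes. It read 10.23, 10.34 and 10.24 in WT and 10.01, 10.62 and 10.57 in labelled Lxn-/- arrays 1, 2 and 3. The labelled Lxn-/- arrays lay on both sides of WT, with array 1 the lowest of 6 and arrays 2 and 3 the highest. The SD was 0.06 in WT and 0.34 in the labelled Lxn-/- arrays (n = 3 each). The change was 0.13 (SE 0.15, 95% interval -0.22 to 0.47, adjusted p 0.669). Without labelled Lxn-/- array 1 it was 0.32 (SE 0.09, unadjusted p 0.0061, adjusted p 0.123), and without array 2 it was 0.02.

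Other genes of the interleukin 12 family, its receptors and their signalling were given by a list of 10 genes, all measured. None passed, and 9 had a lower mean in the labelled Lxn-/- arrays, with a median change of -0.14. Of all tested features, 42.2% had a higher mean. That share was 10.4% in level decile 3 and 79.1% in decile 10, which each hold genes of this list. Of the 10, 3 had a mean at or below the 95th percentile of the olfactory receptor genes. Ebi3, whose product pairs with that of Il12a or Il27, read 9.98, 10.29 and 10.27 in WT and 8.86, 9.87 and 9.88 in labelled Lxn-/- arrays 1, 2 and 3. Its groups did not overlap, where 13% of all features did so with the labelled Lxn-/- arrays lower. The change was -0.65 (SE 0.25, adjusted p 0.340). Il12b, the larger subunit of interleukin 12, changed by -0.23 (SE 0.11), and Il27 by -0.21 (SE 0.10). Il12b was dim, at 6.29 to 6.77, and its level decile had a median of -0.14, while those of Il27 and Ebi3 had -0.01 and 0.09.

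Gpr171 encodes a G protein-coupled receptor and lies in a cluster of purinergic receptor genes. It read 11.24, 11.31 and 11.36 in WT and 11.09, 11.57 and 11.35 in labelled Lxn-/- arrays 1, 2 and 3. As for Il12a, array 1 labelled Lxn-/- was the lowest and array 2 the highest of 6, and the groups overlapped. The change was 0.04 (SE 0.12, 95% interval -0.25 to 0.32, adjusted p 0.894). It was -0.05 after the tested features were quantile-normalized again and -0.08 without labelled Lxn-/- array 2. Of 6 listed neighbours and relatives on the same chromosome 5 were measured and none passed, with P2ry14 at 0.06 (SE 0.11), Med12l at -0.23 (SE 0.13) and P2ry1 at -0.08 (SE 0.09).

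Il12a and Gpr171 both lie on chromosome 3 with Lxn. Between Il12a and Lxn there were 2 measured genes, Rarres1 and Mfsd1, neither with an unadjusted p under 0.05. Between Gpr171 and Lxn there were 37, of which 3 were higher and 4 lower at that limit, and 0 passed after adjustment. Over all tested features, 5.06% were higher and 9.23% lower at that limit.

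The arrays ordered the genes unevenly. Labelled Lxn-/- array 2 was the highest of 6 for 6 of the 10 genes (Dntt, Rag2, Il12a, Lsp1, Blnk and Gpr171), and WT array 2 was the lowest for 5 (Dntt, Rag2, Cd52, Blnk and Vpreb1). Relative to the WT mean, the median of the 10 genes was 0.01, 0.29 and 0.15 in labelled Lxn-/- arrays 1, 2 and 3, and -0.03, -0.02 and 0.05 in the WT arrays. Over all tested features the same medians lay between -0.04 and 0.02. Genes above the WT mean numbered 5, 9 and 8 in labelled Lxn-/- arrays 1, 2 and 3, and 3, 4 and 6 in the WT arrays. Of all tested features, 44.8%, 45.9% and 43.4% lay above it in labelled Lxn-/- arrays 1, 2 and 3. In the WT arrays 45.9%, 58.5% and 44.1% did, and these shares are not matched for level. By the median of the 10 genes, labelled Lxn-/- array 2, without Y-linked signal, was the farthest from WT, and array 3, with it, came next. The value of array 1, which also had it, is a median of genes on both sides, with Rag2 at -0.44, Il12a at -0.26 and Rag1 at 0.23. For Il12a, Lsp1 and Gpr171, and for all 3 measured gate genes (Kit, Flt3 and Cd34), labelled Lxn-/- array 1 was the lowest of 6. It also had the lowest weight, 0.356, when limma estimated array weights.

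**Figure D5:**
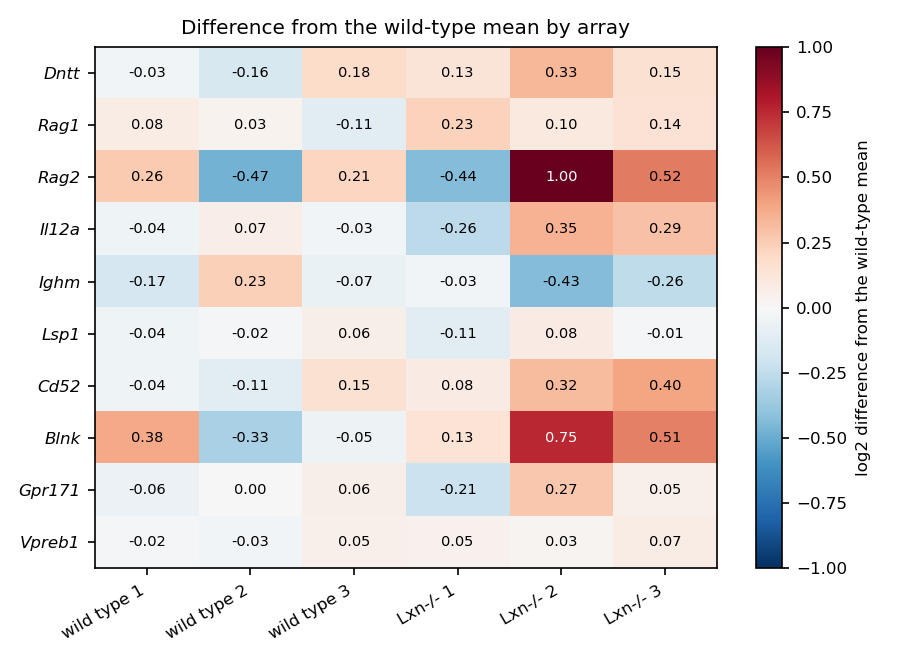
Log2 difference of each gene from its WT mean (colour and printed value) in each of the 6 arrays. Red cells are above the WT mean, and the column of labelled Lxn-/- array 2 is above it for all genes but Ighm.

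The genes with a pattern most like the 3 widest-ranging members were named by Pearson correlation over the 6 arrays, among 5057 genes with a range of at least 0.5. All pairs share the same arrays and their normalization, and r is a description. For Rag2 they were Mx1 (r = 0.993), Zfp961 (0.992), Zfp317 (0.989), Tia1 (0.988) and Zfp715 (0.986). For Blnk they were Snx9 (0.988), Rasa1 (0.987), Sass6 (0.981), Clec9a (0.975) and Thap2 (0.973). For Ighm they were Chia1 (0.997), Col24a1 (0.993), Rtbdn (0.992), Mc4r (0.990) and Krt19 (0.988).

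Receptors and transcription factors that mark or drive the lymphoid path were given by lists of 12 and 17 genes. Of 10 measured receptors none passed, 2 had a higher and 8 a lower mean (median -0.06). Il7r, the receptor chain for interleukin 7, read 10.06, 9.63 and 9.63 in WT and 9.77, 10.19 and 10.13 in labelled Lxn-/- arrays 1, 2 and 3, a change of 0.25 (SE 0.15). The thymus-homing receptor gene Ccr9 changed by -0.39 (SE 0.19), with WT array 2 the highest at 9.60, and Ccr7 by -0.14 (SE 0.08). Of 16 measured transcription factors none passed, 7 had a higher and 9 a lower mean (median -0.02). Irf8, a regulator of B and myeloid cells, read 11.26, 10.97 and 10.88 in WT and 11.50, 11.45 and 11.42 in the labelled Lxn-/- arrays (change 0.42, SE 0.11, adjusted p 0.340). Satb1, a chromatin organiser of lymphoid progenitors, changed by 0.24 (SE 0.09) and Pou2af1, a B cell coactivator, by -0.37 (SE 0.16), beside a median of -0.12 in the level decile of Pou2af1.

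Markers of mature cells were mostly dim. Of 10 measured mature B cell markers, 6 had a mean at or below the 95th percentile of the olfactory receptor genes. Their mean level was 7.56 to 7.84 in WT and 7.52 to 7.60 in the labelled Lxn-/- arrays, and 7 of the 10 were highest in WT array 2. Of 11 T cell and 9 NK cell markers, 7 each were at or below that percentile. T cell markers had mean levels of 6.65 to 6.83 in WT and 6.67 to 7.04 in the labelled Lxn-/- arrays, and NK cell markers 6.66 to 6.74 and 6.57 to 6.70. The 6 plasma cell genes had mean levels of 7.91 to 8.50 in WT and 7.88 to 8.05 in the labelled Lxn-/- arrays, and 2 were at or below the percentile. Of 10 monocyte, macrophage and dendritic cell markers 2 were, with mean levels of 8.05 to 8.30 in WT and 8.18 to 8.42 in the labelled Lxn-/- arrays. Of the NK cell markers, 2 did not overlap between groups, both with the labelled Lxn-/- arrays lower, where 13% of all features did so. In the monocyte, macrophage and dendritic cell list 5 had a higher and 5 a lower mean. There 3 did not overlap between groups, all with the labelled Lxn-/- arrays higher, where 8.54% of all features did so. These were Ccr2, a chemokine receptor of monocytes (0.75, SE 0.16), Csf1r, the receptor of a macrophage growth factor (0.50, SE 0.14), and Itgax, an integrin of dendritic cells (0.26, SE 0.11). Their unadjusted p-values were 0.00125, 0.00502 and 0.0395. None of the markers of any list passed after adjustment (smallest adjusted p 0.340), and their part in the values of the 10 genes was not tested.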

How the data were processed

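Biotin-labelled RNA (100 ng of total RNA per sample) was run on Affymetrix mouse gene arrays, per the labels' protocols and the series text. The deposited table holds 1 log2 expression value per feature and array, made by the authors with RMA, and the submitters' processing notes also list Partek 6.0. That the scale is log2 was read from the values (2.93 to 14.78). Build and scan dates: not given in the sources used here. A difference in total RNA is removed by RMA. Groups and replicate numbers came from the sample titles. Features were named through the platform's annotation, updated by Entrez identifier in the GRCm38.p6 gene table. The 23410 features with a symbol were tested with limma 3.58.1 under R 4.3.3 (moderated, two-sided, Benjamini-Hochberg over all), after a check on simulated data. The fit was repeated with a block for replicate number, without each array, with labelled Lxn-/- array 2 alone, after quantile normalization or centring, with a level filter, with trend and robust settings, with array weights and on the mean of a gene's features. The members are always named. Pathway lists name members past the threshold or else the 3 with the smallest p. Lists of markers of other cells are given by counts and levels, and the markers named from them, the partners of BLNK, the immunoglobulin genes and the genes by Lxn were added after values were seen. Members and lists were chosen with earlier results of these data known. Motifs were searched in the 250 bases upstream of the RefSeq start sites.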

Additional observations from a re-analysis of the deposited data

How the results depend on the processing

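None of the 10 genes passed the adjusted threshold in the main limma fit or in any of the 14 alternatives (smallest adjusted p 0.123, Il12a without labelled Lxn-/- array 1), and 0 is the count in each. The number at an unadjusted p under 0.05 was 2, and 0 to 5 when single arrays were left out. It was 0 without WT array 2, labelled Lxn-/- array 2 or labelled Lxn-/- array 3, when 8.13%, 11.3% and 6.95% of all features met this limit. Without WT array 1 it was 1, and without WT array 3 it was 2, when 11.7% and 10.5% did. Without labelled Lxn-/- array 1 it was 5, when 23.7% did. It was 1 (Cd52) with the replicate number as a block, 1 (Rag1) after quantile normalization, 4 with array weights and 4 for labelled Lxn-/- array 2 alone against WT, when 14.2%, 7.74%, 24.0% and 12.8% of all features did. The median change of the 10 genes, 0.142, was 0.294 for that array alone and 0.051 to 0.200 with single arrays left out. The change of Lsp1 turned from -0.012 to 0.084 for that array alone, 0.044 after centring and 0.015 with array weights, and ran from -0.061 to 0.037 with single arrays left out. That of Gpr171 turned from 0.035 to -0.048 after quantile normalization, and ran from -0.082 to 0.158 with single arrays left out. The cause was not tested. The other 8 genes kept their direction in all alternatives that tested them. With the level filter, Rag1, Rag2 and Vpreb1 were not tested. Same-numbered deviations correlated at 0.076, -0.008 and -0.006, and arrays 2 and 3 of each group correlated best with the other number. Differently numbered arrays correlated at -0.051 to 0.052. All of these are small, so they cannot decide whether the replicate numbers pair the arrays. Of all tested features 0 passed the adjusted threshold in the main fit, 1 with the replicate block, 145 without labelled Lxn-/- array 2, 3 for that array alone, 1 without WT array 3, 1 without labelled Lxn-/- array 3 and 0 in the other alternatives. In the fit without labelled Lxn-/- array 2, label and Y-linked signal cannot be told apart. The 6 arrays limit all intervals, and Vpreb1, Rag1 and Rag2 are near the signal floor.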

Other observations

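Labelled Lxn-/- array 1 was the highest of 6 for 6 of 11 T cell markers, WT array 2 for 4 and labelled Lxn-/- array 2 for 1. The share of all tested features highest in each array was not computed. Cd8b1, a chain of the CD8 coreceptor, read 7.11 in labelled Lxn-/- array 1 and 6.21 to 6.50 in the other arrays. Themis, a gene of thymocyte selection, read 6.67 in labelled Lxn-/- array 1 and 5.51 to 6.12 in the others. In every array, Cd8b1 and Themis lay below 7.21, the 95th percentile of the olfactory receptor genes. Both genes were chosen after their values were seen, neither passed the test between the labelled groups (adjusted p 0.520 and 0.870 in limma), and the array medians of the olfactory receptor genes were 6.01 in that array and 5.72 to 6.11 in the others.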
